A study of Mus musculus with 4 samples.

Results

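The enzymes that write, maintain and remove DNA methylation were followed in fetal livers of mice whose dams ate a control diet (CD) or a high-fat diet (HFD). They comprised 9 genes: the methyltransferases Dnmt1, Dnmt3a and Dnmt3b, the cofactors Uhrf1 and Dnmt3l, the oxidases Tet1, Tet2 and Tet3, and the glycosylase Tdg. Members were all probes whose target transcript belongs to 1 of these genes, which gave 17 of the 56596 usable probes and 9 of the 22909 genes on the array. The dams were C57BL/6J mice, fed during gestation either the CD (4.3% of kcal from fat, 19.2% from protein and 67.3% from carbohydrate) or the HFD (60% from fat, 20% from protein and 20% from carbohydrate). Total RNA from fetal liver was hybridised to 4 Agilent 1-colour arrays, 2 for each diet, which are called CD 1, CD 2, HFD 1 and HFD 2. The livers were taken at E14.5. The C57BL/6J background is common to both groups, and neither the number of fetuses behind an array nor that of the dams is given in the sources used here, so p-values measure only the spread between these arrays.

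DNA methylation in mammals is laid down on cytosines next to guanines (CpG) by DNMT3A and DNMT3B, which the catalytically inactive DNMT3L assists in germ cells and early embryos. When DNA is copied, UHRF1 recognises the hemimethylated daughter strands and brings in DNMT1, the maintenance enzyme. TET enzymes oxidise 5-methylcytosine, and TDG excises the more oxidised products so that base excision repair can put back an unmodified cytosine. The fetal liver at this stage holds hepatoblasts among a majority of blood-forming, largely erythroid cells that divide rapidly.

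The arrays gave median intensities of 70.2 to 120 and put 65.4% to 70.0% of spots well above background, with CD 2 the dimmest by both measures. All 4 arrays were on 1 slide and were read in 1 scan, but both CD arrays lay before both HFD arrays in slide position, so that position and diet cannot be told apart. Every array is labelled female, without a statement of whether fetus or dam is meant. Xist, the X-inactivation transcript, was not well above background on CD 1 and HFD 1 but was on CD 2 and HFD 2, at levels of -0.65 and -0.74. The Y-linked genes Ddx3y, Eif2s3y, Kdm5d and Uty, 4 of 4 examined, showed the opposite, and Eif2s3y had levels of 1.45 and 1.84 on CD 1 and HFD 1 against -6.74 and -6.32 on CD 2 and HFD 2. Each diet thus had 1 array with Y-linked signal and 1 without, and if the label means the fetus, CD 1 and HFD 1 go against it. The comparisons are therefore also given within replicate numbers. A level is the log2 intensity minus that array's 75th percentile, so that 0 stands for a probe as bright as the 75th percentile.

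No member passed the test between the diets. Of the 17 probes, 16 cleared background on every array and entered the test, and 0 of the 16 passed the cutoffs of an unadjusted p under 0.05 with at least a 2-fold difference, where 0.769% of all 41332 tested probes did. At an unadjusted p under 0.05 alone the members again gave 0, against 3.34% of all tested probes. After Benjamini-Hochberg adjustment limma called 0% of all probes, and the adjusted p was 1.00 for every member. The smallest unadjusted p among the members was 0.216. An exact permutation test of 2 against 2 arrays cannot go below 0.333. The 95% intervals of all 16 probes lay within 2-fold in either direction, reaching from 0.561-fold to 1.92-fold, as did those of 74.0% of all tested probes. The CD arrays spread more widely than the HFD arrays, with a median absolute difference over the members of 0.39 between CD 1 and CD 2 and of 0.10 between HFD 1 and HFD 2 on the log2 scale, against 0.11 between the diets. Over all tested probes these medians were 0.35, 0.12 and 0.15.

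**Figure D1:**
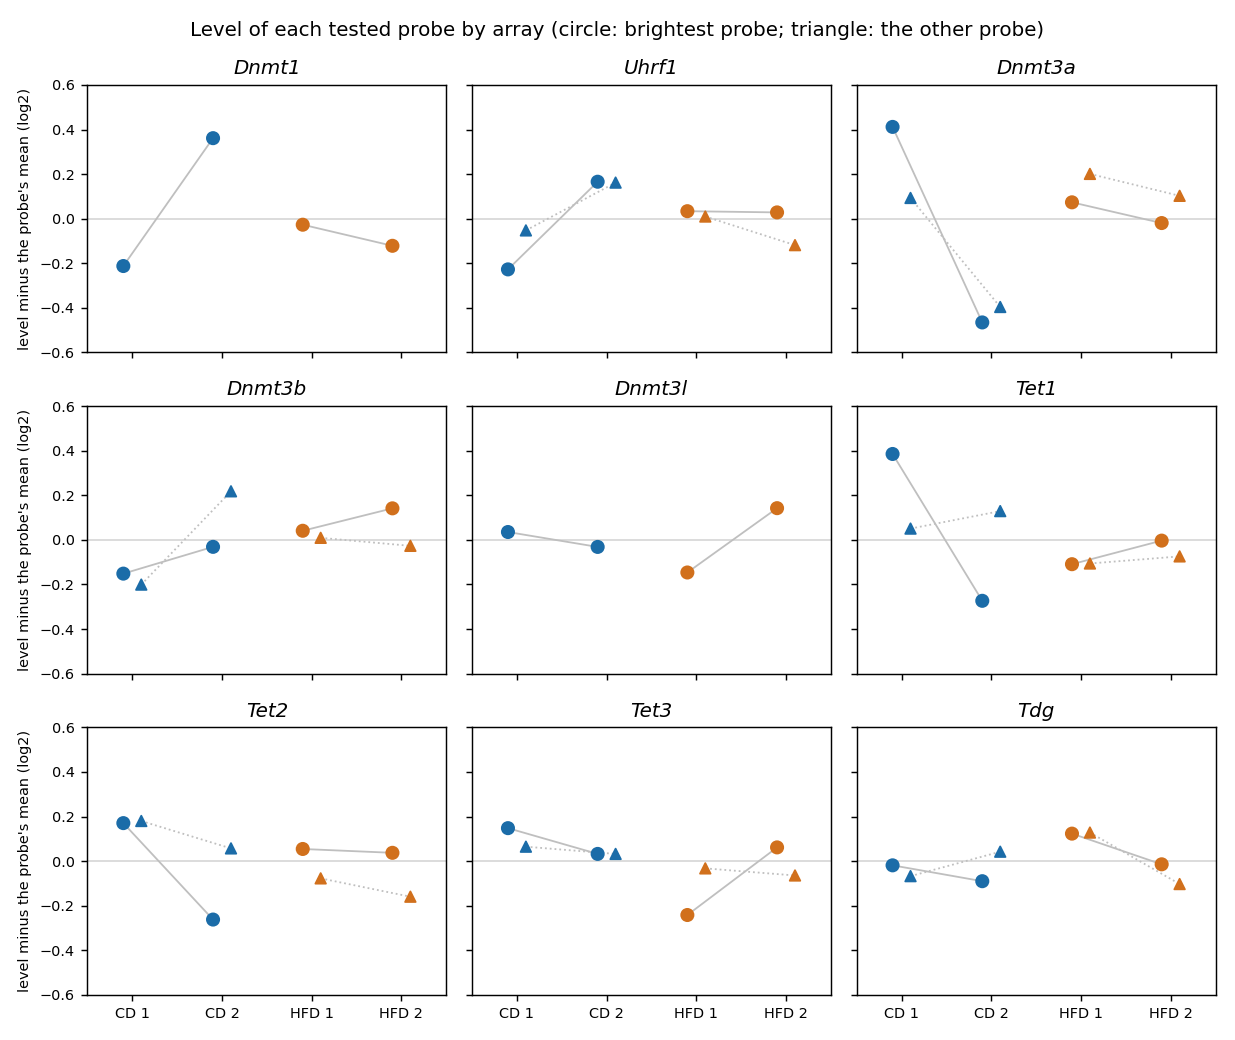
Level of every tested probe on CD 1 and CD 2 (blue) and HFD 1 and HFD 2 (orange), on the log2 scale after subtraction of that probe's mean over the 4 arrays; circles are the brightest probe of a gene and triangles the other probe. The CD arrays lie on either side of the HFD arrays for Dnmt1, Uhrf1, Dnmt3a, Tet1 and Tet2 (circles), and Dnmt3a spans the widest range, from 3.45 on CD 1 to 2.58 on CD 2 before subtraction.

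Maintenance methylation depends on Dnmt1 and Uhrf1. The Dnmt1 probe had levels of 2.03 and 2.61 in CD livers and 2.22 and 2.12 in HFD livers. The HFD livers lay between the CD livers, and the difference was -0.15 on the log2 scale (SE 0.25, 95% interval -0.81 to 0.51, n = 2 per diet). The brighter Uhrf1 probe read 5.39 and 5.78 in CD livers and 5.65 and 5.65 in HFD livers. It again placed the HFD livers between the CD livers, with a difference of 0.06 (SE 0.20, 95% interval -0.48 to 0.61). The dimmer Uhrf1 probe, which targets another transcript, read -1.68 and -1.47 against -1.62 and -1.75, a difference of -0.11, so that the Uhrf1 probes had opposite signs within overlapping groups.

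The Dnmt1 probe and the brighter Uhrf1 probe shared an order of the arrays, CD 1 lowest and CD 2 highest, while on the dimmer Uhrf1 probe HFD 2 was lowest. Dnmt1 was 0.57 and Uhrf1 0.39 (dimmer probe 0.21) lower on CD 1 than on CD 2, on the log2 scale. All 16 of 16 DNA replication genes, among them Pcna, the sliding clamp of the replication fork, and Mcm2 to Mcm7, subunits of the replicative helicase, were also lower on CD 1, with a median of -0.46. So were 6 of 6 hepatoblast markers, with a median of -0.36, and 6 of 6 erythroid markers, with a median of -0.62, while 47.4% of all tested probes were higher on CD 1 than on CD 2. In bulk RNA, fewer cells of a type and less RNA per cell cannot be told apart. Before scaling, the Dnmt1 probe had intensities of 4388 on CD 1 and 4287 on CD 2, where the 75th percentiles were 1072 and 704. The part of array brightness and scaling in these shifts was not tested.

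The bases before an annotated start of Dnmt1 and of Uhrf1 are shown because the enzymes act together in maintenance. Among the RefSeq promoter windows of the build GRCm38.p6, each of which was read over the 250 bases before a start, 3 belonged to Dnmt1 and 2 to Uhrf1. The windows were searched on both strands for TTTCCCGC, TTTGGCGC, TTTCGCGC and TTTGCCGC, forms of the motif bound by E2F factors, which are known to switch on genes of the S phase. These letters were chosen after the promoters had been read. The matches below are therefore no independent result, and the share over all windows is no test of them. Of all 32851 windows 1.86% held at least 1 of these forms. Among the 16 windows of the members, 2 did, and they belonged to Dnmt1 (chr9:20952624-20952873, minus strand) and Uhrf1 (chr17:56304063-56304312, plus strand). Both other Dnmt1 starts (windows chr9:20952980-20953229 and chr9:20959889-20960138) and another Uhrf1 start (window chr17:56303087-56303336) lie upstream of these windows. For transcripts from those starts the printed bases are therefore not upstream sequence. Capitals mark the matching letters, or their reverse complement, 5′ to 3′ on the strand of the gene.
Dnmt1: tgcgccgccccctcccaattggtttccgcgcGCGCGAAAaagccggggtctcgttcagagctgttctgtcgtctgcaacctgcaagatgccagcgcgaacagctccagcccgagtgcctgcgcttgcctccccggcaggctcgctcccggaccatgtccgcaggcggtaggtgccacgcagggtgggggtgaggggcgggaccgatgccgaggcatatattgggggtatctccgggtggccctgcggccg
Uhrf1: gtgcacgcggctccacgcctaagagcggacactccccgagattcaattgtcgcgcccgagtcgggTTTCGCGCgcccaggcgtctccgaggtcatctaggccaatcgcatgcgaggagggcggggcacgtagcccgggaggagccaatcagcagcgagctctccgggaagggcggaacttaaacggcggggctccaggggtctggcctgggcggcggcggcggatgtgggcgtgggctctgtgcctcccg
Of the DNA replication genes, 13 had a window and 4 of these held at least 1 of the forms, as did 2.16% of all 27025 genes with a window. The late choice of the letters limits this count too. A match of letters is a description and no binding was measured.

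De novo methylation is the work of Dnmt3a and Dnmt3b. The brighter Dnmt3a probe had intensities of 11741 and 4196 in CD livers and 8395 and 7376 in HFD livers, or levels of 3.45, 2.58, 3.11 and 3.02. The HFD livers were close together and lay between the CD livers, which stood 1.84-fold apart. The difference between the diets was 0.05 (SE 0.33, 95% interval -0.83 to 0.94). Its direction hung on which CD array was kept, with 0.49 without CD 1 and -0.38 without CD 2. The dimmer Dnmt3a probe, to the same transcript, read -0.32 and -0.81 in CD livers and -0.21 and -0.31 in HFD livers. Both HFD arrays stood above both CD arrays there, by 0.30 (SE 0.23), the largest difference of any tested member probe.

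Dnmt3a had the largest SD over the 4 arrays of the 9 members, 0.36 on the log2 scale, which is higher than that of 85.2% of 16595 genes well above background on every array. The levels of Osbpl5, Dcn and Lamb1 followed its brighter probe most closely, after subtraction of each gene's mean. Their root mean square differences were 0.010, 0.012 and 0.014 over the 4 arrays. They are the nearest of 16594 genes compared on only 4 values, where close matches can arise without any link. The dimmer Dnmt3a probe was not compared, and the log2 ratio of the Dnmt3a probes moved by 0.45 over the arrays. Dcn encodes the matrix proteoglycan decorin and Lamb1 a laminin chain of basement membranes. Of the other members, Tet1 and Tet2 stood 0.66 and 0.43 higher on CD 1 than on CD 2, and Dnmt3l, Tet3 and Tdg 0.07 to 0.12 higher, while Dnmt3b differed by -0.12 in the other direction. The direction of Dnmt3a was seen for 7 of 7 neuron markers, with a median of 0.48, and for 47.4% of all tested probes. It was also seen for 2 of 2 tested trophoblast markers, Ascl2 and Gcm1. The trophoblast markers left out of the test all went the other way, from -1.54 for Tpbpb to -2.24 for Prl3b1. Among the other lists, the direction of Dnmt3a was seen for 2 of 3 tested gonadal and adrenal markers and 5 of 7 tested germ line genes. Of the 6 tested germ cell markers 2 went this way.

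The brightest Dnmt3b probe had levels of 1.87 and 1.99 in CD livers and 2.07 and 2.17 in HFD livers. Both HFD livers stood above both CD livers, by 0.18 (SE 0.17, 95% interval -0.26 to 0.62). The next Dnmt3b probe read 0.18 and 0.60 against 0.39 and 0.36, with overlapping groups and a difference of -0.02. The remaining Dnmt3b probe was not well above background on any array and was not tested. It was the 1 member probe left out of the test.

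Dnmt3l, the inactive partner of the de novo enzymes, was dim but well above background on every array. Its intensities were 41.3 and 25.9 in CD livers and 32.9 and 37.6 in HFD livers, and its levels -4.70, -4.77, -4.88 and -4.59. The HFD livers lay on either side of the CD livers, and the difference of -0.0038 had a 95% interval from -0.50 to 0.49. The windows before the starts of the de novo genes differ in what these enzymes act on. The 3 windows of Dnmt3l held 3 to 5 CpG dinucleotides and the 3 of Dnmt3a 15 to 40, where the median of all windows was 6. The richest window of Dnmt3a (chr12:3806910-3807159, plus strand) and of Dnmt3l (chr10:78042037-78042286, plus strand) are shown 5′ to 3′ with each CpG in capitals. The Dnmt3a window overlaps the one before another Dnmt3a start (chr12:3806730-3806979), so part of it lies downstream of that start. No methylation was measured on these samples.
Dnmt3a: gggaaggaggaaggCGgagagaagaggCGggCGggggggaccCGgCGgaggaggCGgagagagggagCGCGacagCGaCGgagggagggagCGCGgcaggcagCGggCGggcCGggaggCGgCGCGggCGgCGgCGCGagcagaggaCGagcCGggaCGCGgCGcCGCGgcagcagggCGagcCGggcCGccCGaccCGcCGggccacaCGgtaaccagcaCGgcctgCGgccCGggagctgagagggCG
Dnmt3l: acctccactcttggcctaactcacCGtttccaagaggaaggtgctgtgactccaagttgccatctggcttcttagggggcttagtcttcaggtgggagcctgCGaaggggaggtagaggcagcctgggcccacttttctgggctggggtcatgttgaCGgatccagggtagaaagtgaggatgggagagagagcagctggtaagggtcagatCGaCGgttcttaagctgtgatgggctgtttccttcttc
Every other member had at least 1 window with 15 or more CpG, up to 51 before the start of Tet2.

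**Figure D2:**
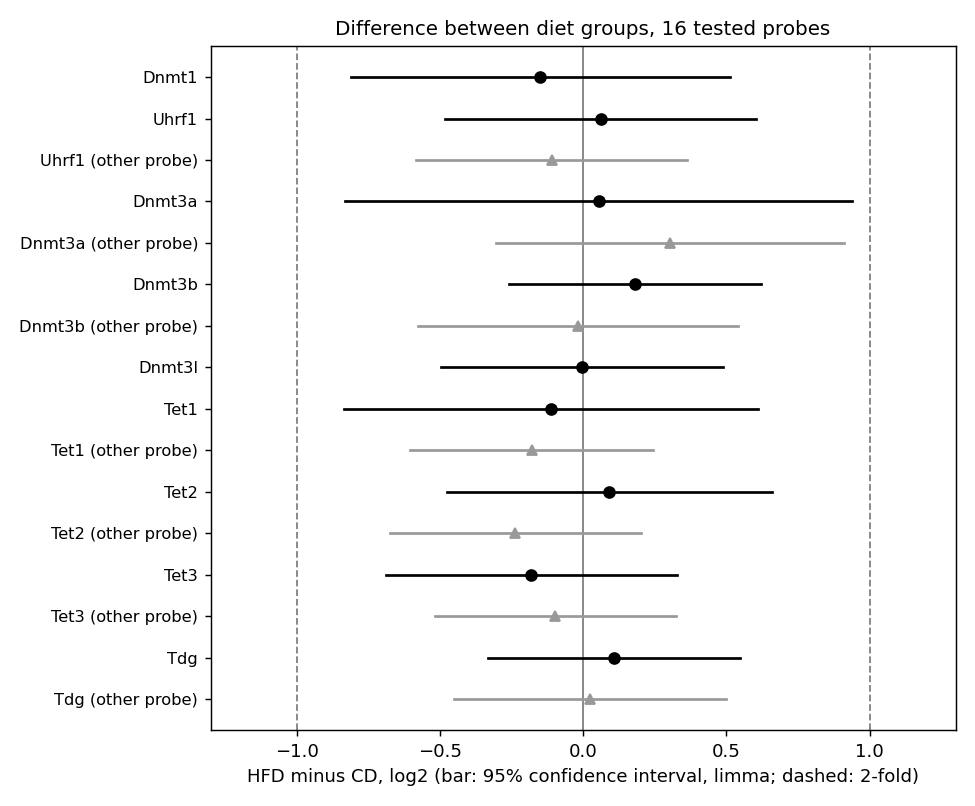
Difference between the diets for the 16 tested member probes, HFD minus CD on the log2 scale, with bars for the 95% confidence interval of limma; black circles are the brightest probe of a gene, grey triangles its other probe, and dashed lines mark 2-fold. Every interval includes 0 and none reaches a dashed line.

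The TET oxidases start active demethylation. The brighter Tet1 probe had levels of -0.11 and -0.77 in CD livers and -0.60 and -0.50 in HFD livers, where both HFD livers fell between the CD livers. Its difference was -0.11 (SE 0.27, 95% interval -0.83 to 0.61), beside a 1.58-fold gap between CD 1 and CD 2. The dimmer Tet1 probe lacked that gap. It read -2.22 and -2.14 in CD livers and -2.38 and -2.35 in HFD livers, both HFD livers below both CD livers by 0.18 (SE 0.16). The log2 ratio of the Tet1 probes moved by 0.74 over the arrays, the widest range of the 7 genes with a pair of tested probes.

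The brighter Tet2 probe read 1.21 and 0.78 in CD livers and 1.09 and 1.08 in HFD livers, with a difference of 0.09 (SE 0.21, 95% interval -0.47 to 0.66). The dimmer Tet2 probe, to the same transcript, read -2.22 and -2.34 against -2.48 and -2.56. There both HFD livers stood below both CD livers by 0.24 (SE 0.16), the smallest p of any member probe (the 0.216 given above), in the direction opposite to the brighter probe.

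The brighter Tet3 probe had levels of -2.65 and -2.76 in CD livers and -3.04 and -2.74 in HFD livers. HFD 1 was the lowest and HFD 2 fell between the CD livers, for a difference of -0.18 (SE 0.19, 95% interval -0.69 to 0.33). The dimmer Tet3 probe varied little, from -4.12 and -4.15 in CD livers to -4.22 and -4.25 in HFD livers, a difference of -0.10 with groups that did not overlap. All 3 dimmer Tet probes thus stood lower on both HFD arrays, and of the 3 brighter Tet probes none did, where 11.1% of all tested probes stood lower on both.

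Tdg, which excises the more oxidised cytosines, was the steadiest member, with an SD of 0.089 over the 4 arrays. The brighter probe read 0.74 and 0.67 in CD livers and 0.88 and 0.74 in HFD livers, both HFD livers above both CD livers by 0.11 (SE 0.17, 95% interval -0.33 to 0.55). HFD 2 and CD 1 were nearly level there. The other Tdg probe read -1.39 and -1.28 against -1.20 and -1.43, with overlapping groups and a difference of 0.03.

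Counted over the 16 tested probes, both HFD arrays stood above both CD arrays for 3 and below for 3, and the groups overlapped for 10. Over all tested probes 19.5% stood above and 11.1% below. Of the 16 probes 7 were higher and 9 lower under HFD, with a median difference of -0.011, against 0.03 over all 41332 tested probes. Of the 9 brightest probes 5 were higher and 4 lower, with a median of 0.05, against 0.04 over the brightest probes of 18192 genes. For 6 of the 9, CD 1 and CD 2 were farther apart than the diets were, as for 72.8% of all tested probes.

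Within replicate numbers the members mostly took opposite directions on their brightest probes. HFD 1 minus CD 1, the pair with Y-linked signal, gave 0.19 for Dnmt1, 0.26 for Uhrf1, -0.34 for Dnmt3a and -0.49 for Tet1. HFD 2 minus CD 2, the pair without it, gave -0.48, -0.14, 0.45 and 0.27 for the same genes. Dnmt3b, at 0.19 and 0.17, and Tdg, at 0.14 and 0.08, were higher under HFD in both pairs, and 0 of the 9 brightest probes were lower in both. The other tested probes of Dnmt3b, at 0.21 and -0.24, and of Tdg, at 0.20 and -0.15, changed sign between the pairs. Those of Tet1, Tet2 and Tet3 were lower under HFD in both pairs, and that of Dnmt3a was higher in both. The same direction in both pairs was seen for 6 of the 16 tested member probes and for 40.9% of all tested probes. These are single-array differences with no test.

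**Figure D3:**
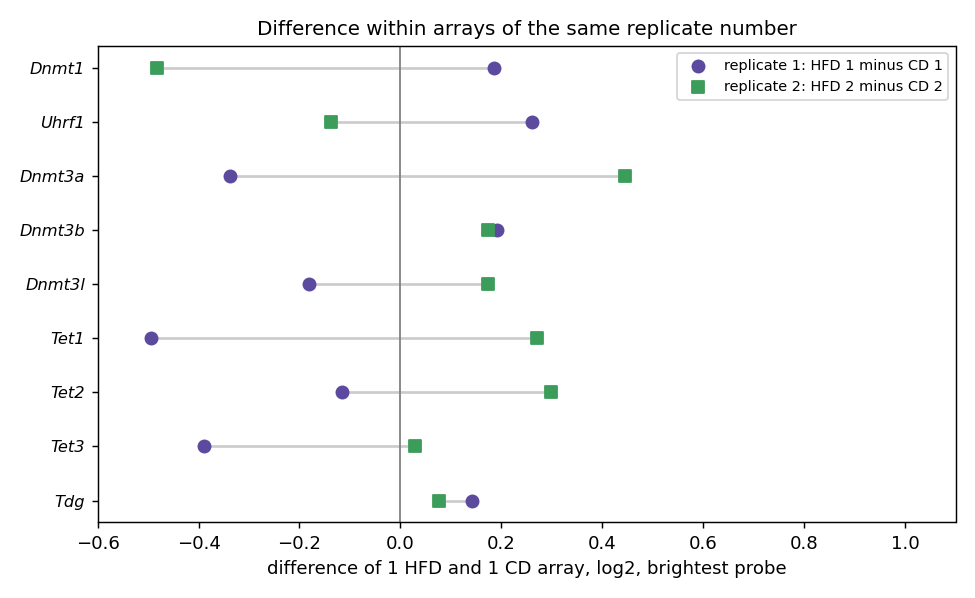
Log2 difference of 1 HFD array and 1 CD array of the same replicate number for the brightest probe of each member; circles are replicate 1 and squares replicate 2. The symbols fall on opposite sides of 0 for all members but Dnmt3b and Tdg.

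The genes around these enzymes were taken from 7 lists with 84 genes in all, of which 79 were tested on their brightest probe. At the same cutoffs 1 of the 79 was higher and 0 were lower under HFD, 2 had an unadjusted p under 0.05, and 0 passed adjustment. Among the 13 tested genes that target the enzymes or shape their chromatin, 0 passed, 8 were higher and 5 lower, and the median difference was 0.01. Hells, a remodelling helicase needed for DNA methylation, differed by 0.28 (SE 0.16) and Usp7, a deubiquitinase that binds DNMT1 and UHRF1, by 0.27 (SE 0.16), both with HFD arrays above CD arrays. Of the 7 readers of methylated DNA 0 passed, with 3 higher and 4 lower and a median of -0.10. Zbtb38, a zinc finger reader, differed by -0.21 (SE 0.17) and Mbd3, a subunit of the NuRD complex, by -0.12 (SE 0.19).

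The base excision repair list, which holds steps after TDG and also other glycosylases, gave 0 of 11 genes, 6 higher and 5 lower. The glycosylase Neil1 read -3.53 and -3.31 in CD livers and -3.76 and -3.89 in HFD livers, a difference of -0.40 (SE 0.18), and the uracil glycosylase Ung differed by 0.29 (SE 0.16). The enzymes that make or use 2-oxoglutarate, the TET cosubstrate, or its competitors gave 0 of 9, with 8 higher, 1 lower and a median of 0.07. Fh1 and Sdha, which consume the TET inhibitors fumarate and succinate, differed by 0.23 (SE 0.17) and 0.19 (SE 0.17). The methyl donor cycle, which makes S-adenosylmethionine, gave 0 of 16, with 9 higher, 7 lower and a median of 0.09. Its largest differences were those of the betaine methyltransferases Bhmt, at 0.51 (SE 0.28), and Bhmt2, at 0.33 (SE 0.22). Leaving out CD 1 gave 0.18 and 0.11 for these genes, and leaving out CD 2 gave 0.84 and 0.55. Bhmt was 0.66 lower on CD 1 than on CD 2, and all 16 genes of the cycle and all 9 of the 2-oxoglutarate list were lower on CD 1.

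DNA replication genes, the company of Dnmt1 and Uhrf1 in dividing cells, gave 0 of 16, with 13 higher and 3 lower under HFD and a median of 0.11. Both HFD arrays stood above both CD arrays for 5 of them, beside the 19.5% of all tested probes, and below for 0. Rrm2, a ribonucleotide reductase subunit, differed by 0.37 (SE 0.17) and the licensing factor Cdt1 by 0.33 (SE 0.17).

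The list with a gene past the cutoffs was that of germ line genes whose promoters are methylated in somatic cells. Of its 11 genes 7 were tested, of which 5 were higher and 2 lower, but 3 of the 7 (Dazl, Sycp1 and Asz1) were not well above background on all arrays. The list's median of 0.51 is the value of Sycp1, which was not well above background on any array. Over the other 4 genes, Tex19.1, Ddx4, Taf7l and Tdrd1, the median was 0.41. Tex19.1, a germ line and placental gene that depends on promoter methylation for its silence, had levels of -2.53 and -1.97 in CD livers and of -0.72 and -1.66 in HFD livers. All 4 arrays were well above background, and the difference was 1.06 (SE 0.40), or 2.09-fold, with an unadjusted limma p of 0.049 and an adjusted p of 1.00. The call was kept in 3 of 15 alternatives. It was lost without HFD 1, CD 1 or CD 2, with differences of 0.59, 0.78 and 1.34, and also where the difference stayed near 1.06, as with quantile normalisation, no CV filter and the methods' t-test. Ddx4, a germ cell helicase, was the other gene with an unadjusted p under 0.05, at 0.78 (SE 0.26), below 2-fold. Mael, a piRNA pathway gene, cleared background in both HFD livers and in neither CD liver. It was at least 2.04-fold brighter under HFD, but fell under the filter and was not tested. Dazl and Mael were picked by the study on these arrays, so they are no independent evidence of the list's direction.

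**Figure D4:**
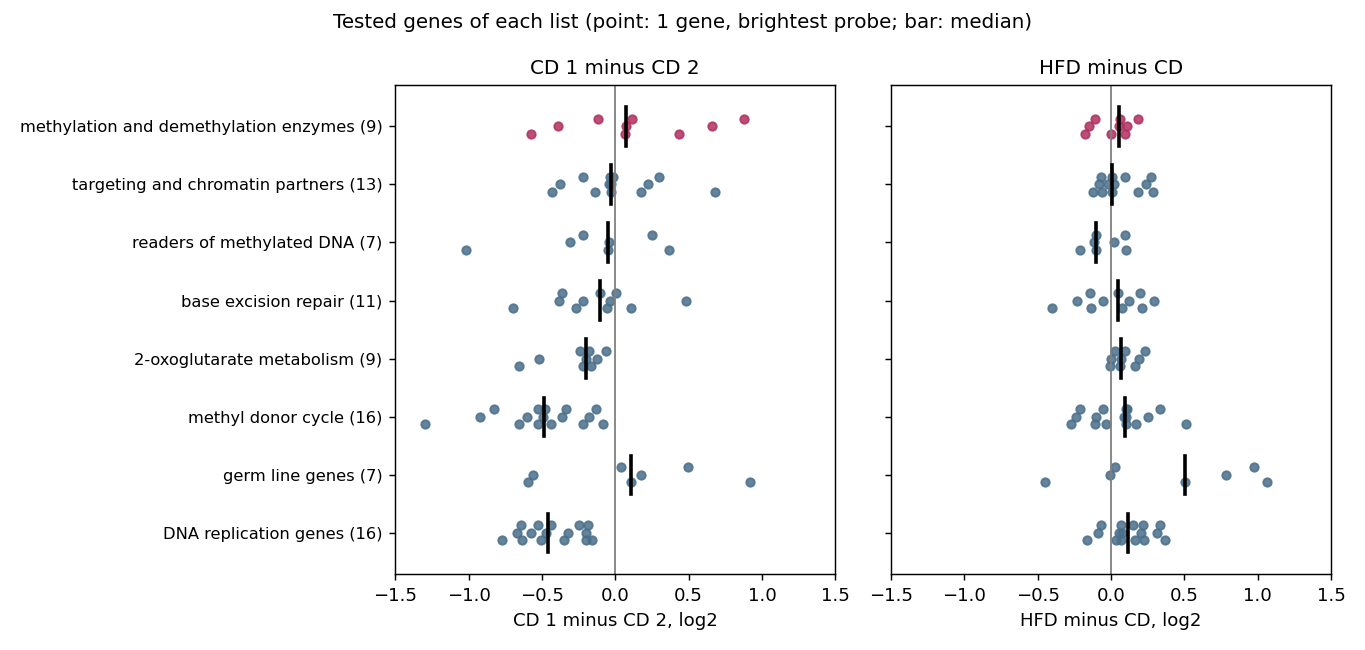
Each point is the brightest probe of 1 tested gene, left as CD 1 minus CD 2 and right as HFD minus CD on the log2 scale, with a black bar for the list's median and the number of genes in brackets. The enzymes scatter on both sides of 0 between the CD arrays while all 16 replication genes and all 16 methyl donor genes lie below 0, and between the diets the germ line genes, 3 of which are not well above background on all arrays, spread from -0.45 to 1.06.

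Markers of other cells were read beside these results. The 6 hepatoblast and 6 erythroid markers were well above background on every array, with 0 past the cutoffs and median differences of -0.0049 and -0.06. Trophoblast markers were also present, 7 of the 8 with a probe well above background on all arrays. The trophoblast-specific Tpbpa read 3.01 and 4.80 in CD livers and 1.00 and -1.01 in HFD livers, and 6 of the 8 were left out of the test for their spread within both groups, with both HFD arrays below both CD arrays for each. The list's summed level, added over its genes on the linear scale relative to the 75th percentile, was 65.1 and 70.9 under CD and 47.1 and 49.97 under HFD, most of it from Gcm1 on 3 of the arrays, which differed by 0.55 with overlapping groups. Without Gcm1 the sum was 14.9 and 51.5 under CD and 3.83 and 1.499 under HFD. Of 7 neuron markers, 3 had an unadjusted limma p under 0.05 and 4 stood lower on both HFD arrays, beside 3.34% and 11.1% of all tested probes. After adjustment 0 of the 7 passed. Their median was -0.63 and their summed levels were 24.9 and 15.7 under CD against 12.2 and 17.2 under HFD. Of the 3 tested gonadal and adrenal markers, Nr5a1 and Cyp11a1 passed the cutoffs, at 1.20 and 1.87, and Foxl2 did not, at -0.31. Their unadjusted limma p were 0.014 for Nr5a1 and 0.018 for Cyp11a1, and 0 passed adjustment. Of all tested probes 0.769% passed the same cutoffs. Star and Amh were not tested and overlapped between the diets. The list's summed level was 22.8 and 42.1 under CD and 24.2 and 28.7 under HFD, nearly all of it Foxl2. Without Foxl2 it was 0.94 and 0.49 under CD and 1.37 and 2.79 under HFD. The germ cell markers, which share genes with the germ line list, had a median of 0.43 and summed levels of 2.13 and 2.29 under CD against 3.10 and 2.00 under HFD. The part of these cells in the values of the members and of the germ line list was not tested.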

How the data were processed

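Total RNA of fetal livers from 2 CD and 2 HFD samples was labelled with Cy3 and hybridised to 1-colour Agilent arrays. The authors read the spots with Agilent Feature Extraction 11.0.1.1, whose deposited intensity values (processed signal, background subtracted) were used here, together with the deposited median brightness and background intensity for an alternative and the deposited flags (score columns: control type, well above background, outlier). The table of all samples that the authors deposited holds a signal value per probe, the processed signal divided by 1 number per array on a linear scale, and served as an alternative. The study's methods describe scaling to the 75th percentile.

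Spots of 1 probe were averaged after removal of flagged spots, log2 was taken, and each array's 75th percentile was subtracted. Probes whose level fell below an array's 20th percentile at least once (14980) or with a CV over 50% in both groups (284 more) were left out, and 41332 remained. HFD was compared with CD by limma 3.58.1 in R 4.3.3 (lmFit, eBayes), with Benjamini-Hochberg adjustment over all tested probes and no covariate. The brightest probe on average stood for a gene. Tests were first run on simulated data. Python 3.11.15 with pandas 2.3.3 and numpy 2.4.6 did the rest. A bound ("at least") compares the brighter group with the lowest level well above background on each array of the dimmer one. Promoter windows are from RefSeq.

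The text names all members, each context list's genes past both cutoffs and, where there were none, its genes with the largest and the second largest difference. The members and lists were chosen with earlier results of these data known. Genes of the germ line and marker lists other than Tex19.1 were named after their values were seen. The number of arrays limits the precision.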

Additional observations from a re-analysis of the deposited data

How the results depend on the processing

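Under 15 alternatives (quantile normalisation, normexp background correction with offset 50, the deposited table, 4 changes of filter, the mean over a gene's probes, the methods' t-test and its Welch form, a replicate block, and each array left out) 0 member genes passed both cutoffs in any. The members' median difference stayed between -0.04 and 0.12. Over all probes 318 passed in the main setting, 33 with normexp, 97 with the methods' t-test, 46 with its Welch form, 851 with no filter, and from 656 to 1223 with 1 array left out.

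Of 135 single member values 124 kept their direction and 11 reversed. With quantile normalisation Dnmt3a was -0.017 and Uhrf1 -0.028, and with the mean over probes Tet2 was -0.073 and Uhrf1 -0.024. With 1 array left out, the lowest and highest values were -0.44 and 0.14 for Dnmt1, -0.38 and 0.49 for Dnmt3a, -0.15 and 0.14 for Dnmt3l, -0.44 and 0.22 for Tet1, -0.12 and 0.31 for Tet2, and -0.13 and 0.26 for Uhrf1. The p was under 0.05 in 4 of the 135, none at 2-fold: Dnmt1 and Dnmt3a without CD 1, and Dnmt3a and Tet1 without CD 2. Mbd3 ran from -0.27 to 0.038 with 1 array left out, with the single reversal, without CD 2, among 225 values of the 15 named genes other than the members and Tex19.1. The cause was not tested.

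The count of context genes past both cutoffs, 1 in the main setting, was 0 with quantile normalisation, normexp, no CV filter, the CV of the log2 signal, the mean over probes and either t-test. It was 2 with the deposited table and with no filter, and Tex19.1 was not among them in either setting. With the filter on probes well above background it was also 2, and Tex19.1 kept its call there. With 1 array left out the count was 0 to 3.

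Arrays of the same replicate number share the sex-linked signal, but the labels name no other link, and the correlation of the replicate deviations of the diets was -0.0997. With the replicate block, 435 probes passed both cutoffs, 0 members and 1 context gene did, the median of the members was 0.05, and no call changed on a member, on a gene named from the lists or on Ddx4, Nr5a1 and Cyp11a1. The calls on Nr5a1 and Cyp11a1 were lost with either t-test, and that on Nr5a1 also with normexp. With 1 array left out, Nr5a1 ran from 0.90 to 1.49 and Cyp11a1 from 1.27 to 2.48. A slide or scan block could not be fitted, since all arrays were on 1 slide in 1 scan. Leaving an array out assumes that the lone array of its group varies like the other group. Within replicate numbers, added after seeing the data, the members' median was -0.12 for replicate 1 and 0.17 for replicate 2. Dnmt3l lay near the background, with intensities of 25.9 to 41.3, where the lowest intensity well above it was 14.9 to 17.5 by array.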
